A study of Homo sapiens with 4 samples.

Results

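The AP-1 and EGR immediate early genes FOS, FOSB, FOSL1, FOSL2, JUN, JUNB, JUND, EGR1, EGR3 and ATF3 were examined in H1 cells, a human embryonic stem cell line, at day 2 of hematopoietic differentiation. The 10 genes were taken by symbol from a table of 56595 distinct gene symbols, and each had a single row. The control group (DMSO, n = 2) and the treated group (IWP2, n = 2) were both H1 cells kept for 2 days in Custom mTeSR1 medium with activin A and BMP4, the factors used to induce mesoderm. The labels give activin A at 40 ng/ml and BMP4 at 50 ng/ml, while the methods of the study give these amounts the other way round. IWP2 is a small molecule that blocks Porcupine, the enzyme needed to secrete Wnt ligands, and the comparison asks which genes depend on Wnt signaling at this stage. The dose of IWP2 is not stated in the labels. All 4 samples come from 1 cell line. The methods of the study speak of independent experiments for its analyses in general, and name more of them than the 2 samples a group analysed here. Neither the methods nor the labels say whether these sequenced replicates came from separate cultures, so the p-values measure only the spread between these samples, which may be technical.

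AP-1 is a dimeric transcription factor made of Jun and Fos proteins, which pair through leucine zippers and bind a short palindromic DNA element. Jun proteins can pair with each other, whereas Fos proteins need a Jun partner. EGR1 and EGR3 are zinc finger factors, and ATF3 is a basic leucine zipper factor that can pair with Jun proteins and is known from the stress response. Immediate early genes are switched on within minutes of growth factor signals or stress, without new protein synthesis, and their transcripts are short-lived. They are induced through the ERK, JNK and p38 kinases, which growth factors that drive early differentiation also activate.

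Each gene is given by its FPKM in every sample, which is the number of fragments scaled by transcript length and library size, and by a limma fit of log2(FPKM + 1) over all 15957 genes whose mean FPKM over the 4 samples was at least 0.5. A gene was called when its Benjamini-Hochberg adjusted p was under 0.05. Of the 10 genes, 8 passed the filter, and EGR1 and EGR3 lay below it. JUN rose and JUNB fell after IWP2, and the other 6 did not pass the test. Over all genes tested, 5.86% rose and 7.39% fell (13.3% called in either direction), so 1 of 8 in each direction is close to what the whole table gives. The median log2 difference of the 8 genes was 0.0058, beside -0.014 for all genes tested. This median rested on 1 library: it was 0.38 without DMSO replicate 1, and -0.017 to 0.055 under the other alternatives.

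The treatment left a strong mark on the cells. Of 8 canonical Wnt targets, 6 fell and none rose, led by SP5, a direct Wnt target, from 53.2 and 47.0 FPKM in DMSO to 0.379 and 0.363 FPKM in IWP2. All 8 primitive streak and mesoderm markers fell, with a summed level of 1115 to 1419 FPKM in DMSO and 150.05 to 172 FPKM in IWP2. The summed level of 6 pluripotency markers was 1131 to 1317 FPKM in DMSO and 2406 to 2411 FPKM in IWP2. SOX2 was near 0 in DMSO, at 0.193 and 0.174 FPKM, and reached 35.6 and 36.1 FPKM in IWP2. Of these 6, SOX2, POU5F1 and DPPA4 rose and TDGF1 fell. Of 4 endoderm markers 3 fell (summed level 245 to 282 FPKM in DMSO and 83.7 to 98.6 FPKM in IWP2). Of 4 neural markers NES rose, OTX2 fell, PAX6 did not pass and SOX1 lay below the filter (149 to 156 and 128 to 138 FPKM). Of 5 endothelial and blood markers KDR fell, and PECAM1, CDH5, TAL1 and SPI1 were below 0.5 FPKM in all samples (53.6 to 61.5 and 36.6 to 39.3 FPKM). Of 4 fibroblast markers THY1 rose, COL1A1 and COL1A2 did not pass, and DCN was listed at 0 or at 0.00705 FPKM (174 to 186 and 182 to 185 FPKM). Leaving out 1 sample at a time left 3 falls among the Wnt targets in each fit, 4 to 7 among the primitive streak and mesoderm markers and 1 to 2 among the endoderm markers, and gave 1 to 4 rises among the pluripotency markers. The calls of TDGF1 and POU5F1 were lost without either IWP2 sample. The DPPA4 call was lost without either IWP2 sample or without DMSO replicate 2, and the SOX2 call held throughout. The calls of NES, KDR and THY1 were lost whichever sample was left out. With no filter on low values 4 Wnt targets, 5 primitive streak and mesoderm markers and 1 endoderm marker fell. In these bulk samples fewer cells of a type and less RNA per cell cannot be told apart, and the part of the shift from mesoderm to pluripotency markers in the differences below was not tested.

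JUN encodes c-Jun, the founding member of the family. Its gene lies on chromosome 1 (chr1:58780788-58784327, GRCh38, minus strand) and has 1 annotated transcript. JUN was at 11.9 and 12.1 FPKM in the DMSO samples and at 42.4 and 44.2 FPKM in the IWP2 samples. The groups lay far apart and the replicates differed 1.01-fold within DMSO and 1.04-fold within IWP2. The means were 12.0 ± 0.123 FPKM in DMSO and 43.3 ± 1.30 FPKM in IWP2 (SD, n = 2 each), a 3.61-fold rise. The log2 difference was 1.77 (SE 0.087, adjusted p = 0.000916, limma). Only 106 of the 15957 genes tested had a larger rise on this scale. These FPKM correspond to about 796 to 860 fragments per DMSO library and 3050 to 3356 fragments per IWP2 library. The fragment numbers were estimated from the low values of genes with a single annotated transcript. Without IWP2 replicate 2 the log2 difference was 1.74 with an adjusted p of 0.0504, and the call held in the fits without each of the other 3 samples.

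The JUN promoter is shown because JUN was the member that rose. RefSeq promoter windows on GRCh38, 250 bases before and 50 after the gene start, were found for 8 of the 10 genes, and FOSL1 and EGR3 had none. The windows were searched on both strands for the AP-1 element TGANTCA, the related 8-letter element TGACNTCA and its cyclic AMP form TGACGTCA (which TGACNTCA includes), the CArG box bound by serum response factor, the EGR element GCGNGGGCG and the TCF/LEF element ATCAAAG. The JUN window held 1 match, TGACATCA at positions -67 to -60 from the RefSeq start, and 1 of the windows of ATF3 held the same 8 letters at -123 to -116. The element TGACNTCA occurred in 7.72% of 35116 windows of this length. JUND held TGACGTCA, found in 1.85% of windows, at -200 to -193. The capitals mark the match in the 30 bases around it:
JUN (chr1:58784096-58784125, minus strand): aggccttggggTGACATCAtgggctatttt
ATF3 (chr1:212565273-212565302, plus strand): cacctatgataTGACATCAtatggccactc
JUND (chr19:18281804-18281833, minus strand): ggccgcccccaTGACGTCAacccacaaggc
ATF3 had another window, at a start further into the gene (chr1:212614768-212615067), which held none of the elements searched. The gene start in the deposited table lies 280 bases before the RefSeq start of JUN, so the JUN match falls within the annotated first exon there. No window of a member held ATCAAAG, which occurred in 2.62% of all windows. FOS, JUNB and FOSB held none of these elements in the windows searched, and FOSL2 held TGACTCA at 4 to 10 after the start.

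JUNB, which often acts as a weaker activator than c-Jun and can limit its activity, changed in the other direction. JUNB (chr19:12791496-12793315, GRCh38, plus strand) was at 8.90 and 9.22 FPKM in DMSO and at 5.04 and 5.60 FPKM in IWP2. Both IWP2 samples lay below both DMSO samples. The mean fell from 9.06 ± 0.228 to 5.32 ± 0.393 FPKM (SD, n = 2 each), 1.70-fold lower. The log2 difference was -0.67 (SE 0.12, adjusted p = 0.0257, limma). The call was lost whichever sample was left out (adjusted p from 0.107 to 0.192) and without the filter on low values (adjusted p = 0.0791). Exons of HOOK2 overlap JUNB on the opposite strand, and the libraries carry no strand information. Reads from the shared bases cannot be told apart, and how many bases are shared was not measured. HOOK2 moved upward, from 23.6 and 18.6 FPKM to 35.4 and 41.1 FPKM.

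JUND, the Jun protein that is expressed broadly in resting cells, was by far the most abundant member. It was at 130.3 and 108 FPKM in DMSO and at 148 and 177 FPKM in IWP2. The groups did not overlap, but each spread by about 1.2-fold. JUND stood at the 96.4th percentile of mean FPKM among the genes tested, compared with 78.8 for JUN and 47.7 for JUNB. Its log2 difference was 0.45 (95% interval 0.10 to 0.79) with an adjusted p of 0.101 in limma, so JUND did not pass the test.

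**Figure D1:**
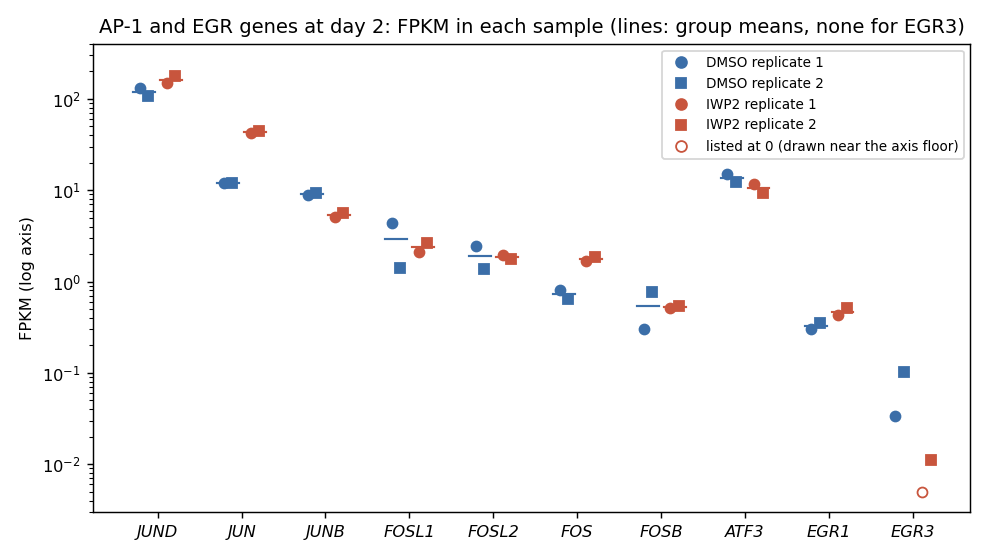
FPKM on a log axis of the 10 genes in each sample, with DMSO in blue, IWP2 in red, circles for replicate 1, squares for replicate 2 and short lines for group means. JUND lies above 100 FPKM in all 4 samples, JUN moves from about 12 to above 42 FPKM, JUNB moves down, and EGR1 and EGR3 lie below 0.6 FPKM, with an open symbol where EGR3 is listed at 0.

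Since FPKM are scaled by length, the Jun transcripts can be set beside each other within a sample. The summed FPKM of JUN, JUNB and JUND was 151 and 130 in DMSO and 196 and 227 in IWP2. JUN made up 7.88% and 9.32% of this sum in DMSO and 21.6% and 19.5% in IWP2. JUNB made up 5.89% and 7.12% in DMSO and 2.57% and 2.47% in IWP2. JUND remained the main Jun transcript in every sample, with 86.2% and 83.6% in DMSO and 75.8% and 78.1% in IWP2. The ratio of JUN to JUNB was 1.34 and 1.31 in DMSO and 8.40 and 7.89 in IWP2. The JUNB values in these shares and ratios may include reads from bases shared with HOOK2. With 2 samples a group an exact permutation test of these shares cannot go below p = 0.333, so they are given as a description.

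**Figure D2:**
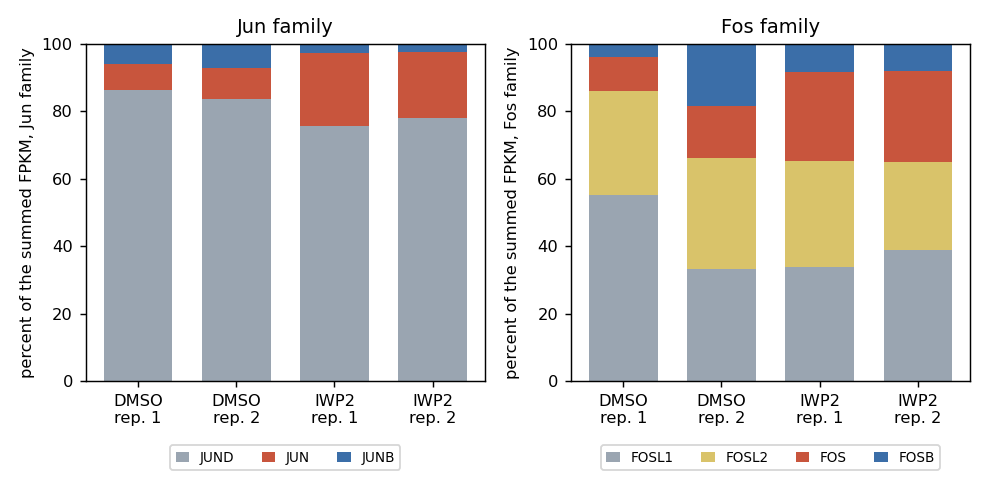
Percent of the summed FPKM taken by each transcript of the Jun family (left) and of the Fos family (right), one bar per sample. The JUN part of the Jun bars is 7.88% to 9.32% in DMSO and 19.5% to 21.6% in IWP2, and the FOSL1 part of the Fos bars is largest in DMSO replicate 1.

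The Fos family was expressed at a low level throughout. The summed FPKM of its 4 genes was 7.99 and 4.20 in DMSO and 6.26 and 6.85 in IWP2, and the Jun sum was 18.9 to 33.1 times as high. FOS, the prototype immediate early gene on chromosome 14 (chr14:75278774-75282230), was at 0.807 and 0.645 FPKM in DMSO and at 1.66 and 1.86 FPKM in IWP2. Both IWP2 values lay above both DMSO values. The ratio of the group means was 2.43. On the log2(FPKM + 1) scale, which understates differences of low genes, the difference was 0.68 (95% interval 0.25 to 1.11), and FOS did not pass the test (adjusted p = 0.064, limma). FOS passed in 1 alternative, the limma fit without an intensity trend, with an adjusted p of 0.0334.

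FOSB, FOSL1 and FOSL2 varied more between the DMSO replicates than between the groups. FOSL1, which encodes Fra-1, was at 4.42 and 1.40 FPKM in DMSO and at 2.13 and 2.66 FPKM in IWP2. Both IWP2 values fell between the DMSO values, which differed 3.16-fold. FOSL2, which encodes Fra-2, was at 2.46 and 1.38 FPKM in DMSO and at 1.96 and 1.78 FPKM in IWP2. FOSB was at 0.300 and 0.774 FPKM in DMSO and at 0.516 and 0.545 FPKM in IWP2. The 95% intervals of the log2 difference were -1.12 to 0.93 for FOSL1, -0.58 to 0.58 for FOSL2 and -0.57 to 0.59 for FOSB, and each interval covers changes in either direction. The sign of the FOSL1 difference turned without DMSO replicate 1, from -0.09 to 0.50. Over all genes tested, 8.25% differed by more than 1.5-fold between the DMSO replicates and 5.71% between the IWP2 replicates, on the log2(FPKM + 1) scale.

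**Figure D3:**
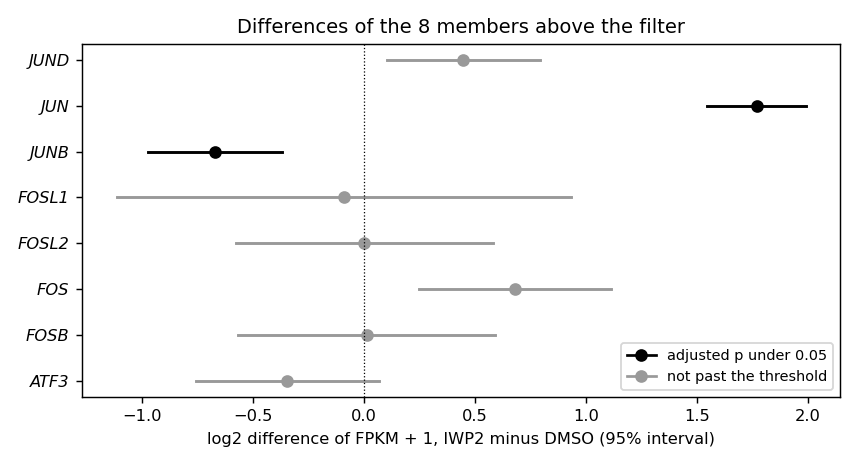
Log2 difference of FPKM + 1 (IWP2 minus DMSO) for the 8 genes above the filter, with unadjusted 95% intervals from limma, in black where the adjusted p is under 0.05. JUN stands at 1.77 and JUNB at -0.67, and the widest interval is that of FOSL1.

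ATF3 (chr1:212565334-212620777) was at 15.03 and 12.2 FPKM in DMSO and at 11.7 and 9.32 FPKM in IWP2. The IWP2 values were the lower ones, with a gap between the groups smaller than the spread within either group. The log2 difference was -0.35 (95% interval -0.76 to 0.07) and did not pass the test (adjusted p = 0.238, limma). Among the 8 genes tested, 3 were higher and 2 were lower without overlap between the groups. Over all genes tested, 27.6% were higher and 31% lower without overlap (58.6% in either direction), so this count does not set the members apart.

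The EGR genes were low, and EGR3 was close to the detection limit. EGR1, a zinc finger factor induced by ERK signaling through serum response factor, was at 0.303 and 0.356 FPKM in DMSO and at 0.426 and 0.509 FPKM in IWP2. The EGR1 level was higher in both IWP2 samples, and corresponded to about 19 and 21 fragments in DMSO and 30 and 31 fragments in IWP2. With no filter on low values the log2 difference of EGR1 was 0.14 (95% interval -0.08 to 0.36, adjusted p = 0.423, limma). The ratio of the group means was 1.42. The log2(FPKM + 1) scale understates differences at this level, so this fit does not settle whether EGR1 changed. EGR3 was at 0.0337 and 0.102 FPKM in DMSO, was listed at 0 in IWP2 replicate 1 and was at 0.0112 FPKM in IWP2 replicate 2. Exon sequence of AC055854.1 overlaps EGR3 on the opposite strand, and reads from the shared bases cannot be told apart without strand information. EGR2 and EGR4, the other members of the family, were at 0.192 FPKM or below in every sample. In contrast, NAB1 and NAB2, the corepressors that bind EGR proteins, were at 15.8 to 20.7 FPKM, and neither passed the test.

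The EGR1 promoter is shown because it was the only member window with CArG boxes, the element that serum response factor binds. The 250 bases before the RefSeq start (chr5:138465229-138465478, plus strand, GRCh38) held a pair of CArG boxes at -105 to -96 and -83 to -74, and a GCGNGGGCG match at -198 to -190, all in capitals:
EGR1: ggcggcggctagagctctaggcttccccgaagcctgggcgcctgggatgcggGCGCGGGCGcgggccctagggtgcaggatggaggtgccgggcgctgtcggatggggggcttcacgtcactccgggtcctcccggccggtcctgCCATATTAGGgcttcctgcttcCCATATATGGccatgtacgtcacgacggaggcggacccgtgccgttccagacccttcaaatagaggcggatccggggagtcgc
A CArG box occurred in 1.29% of all windows, GCGNGGGCG in 9.43% and TGANTCA in 7.71%, and a match is a description of the letters only. SRF, which encodes serum response factor, was at 30.5 and 30.8 FPKM in DMSO and at 35.6 and 34.5 FPKM in IWP2 and did not pass the test.

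Other immediate early genes went in both directions. Of 19 listed genes, 16 passed the filter, 2 rose, 5 fell and 9 did not pass. The median log2 difference was -0.029, beside -0.014 for all genes tested, of which 5.86% rose and 7.39% fell. GADD45B, a stress-induced regulator of p38 and JNK signaling, rose from 17.9 and 17.7 FPKM to 55.1 and 60.9 FPKM, a 3.26-fold change (adjusted p = 0.00118, limma). IER3 fell 2.95-fold, from 41.5 and 42.8 FPKM to 14.0 and 14.6 FPKM (adjusted p = 0.00135, limma). NR4A1, an orphan nuclear receptor, was at 12.7 and 13.4 FPKM in DMSO and at 4.0 and 5.45 FPKM in IWP2, 2.77-fold lower (adjusted p = 0.00951, limma). TRIB1, a pseudokinase that targets proteins for degradation, fell 2.49-fold (adjusted p = 0.0202, limma). The other genes called were IER5 and PPP1R15A, which fell, and IER2, which rose, and they are named here after their values were seen. DUSP1, the phosphatase gene that is induced together with FOS, was at 5.13 to 5.89 FPKM in all samples (log2 difference 0.089, 95% interval -0.22 to 0.40). Leaving out 1 sample at a time left at most 1 gene of this list called in each direction, and 1 rise and 2 falls were called without the filter on low values.

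**Figure D4:**
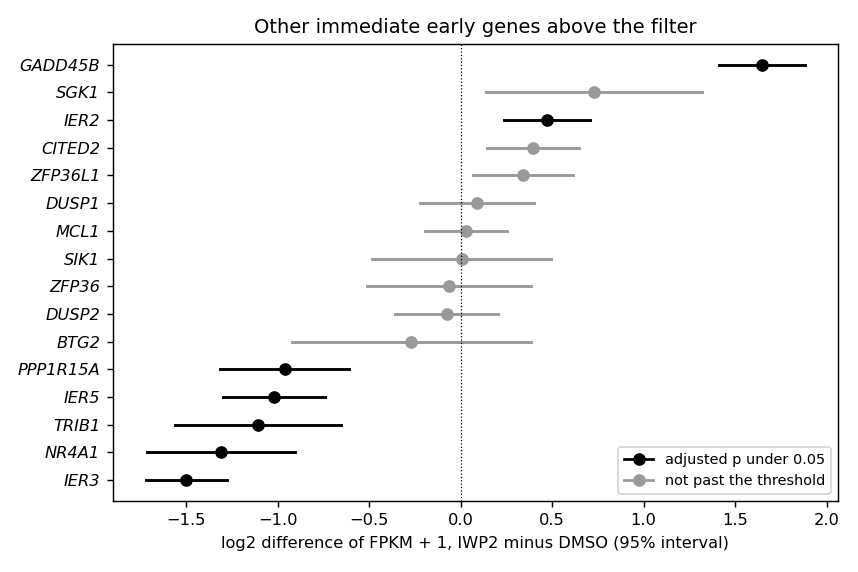
Log2 difference of FPKM + 1 (IWP2 minus DMSO) for the 16 other immediate early genes above the filter, with unadjusted 95% intervals from limma, in black where the adjusted p is under 0.05. GADD45B and IER2 lie to the right of 0, and PPP1R15A, IER5, TRIB1, NR4A1 and IER3 lie to the left.

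Among 16 upstream factors and kinases, 1 rose, 2 fell and 13 did not pass (median log2 difference -0.093). The shares over all genes tested were 5.86% rising and 7.39% falling. MAPK8 encodes JNK1, a kinase that phosphorylates c-Jun. MAPK8 fell from 38.9 and 40.7 FPKM in DMSO to 24.3 and 23.3 FPKM in IWP2 (1.67-fold, adjusted p = 0.00909, limma). MAPK10, which encodes JNK3, fell from 4.22 and 2.33 FPKM to 0.718 and 0.932 FPKM (adjusted p = 0.0441). MKL1, a coactivator of serum response factor, rose from 19.3 and 17.4 FPKM to 29.1 and 27.5 FPKM (1.54-fold, adjusted p = 0.022). MAPK3, which encodes an ERK kinase, the p38 gene MAPK14 and the JNK2 gene MAPK9 did not pass. All 3 calls were lost whichever sample was left out, with adjusted p from 0.057 upward in limma, and only 1 of the falls was called with no filter on low values.

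Genes described to carry AP-1 sites showed no common direction. Of 12 listed, 9 passed the filter, and 1 rose, 1 fell and 7 did not pass (median log2 difference 0.18). Of all genes tested 5.86% rose and 7.39% fell. CD44, the hyaluronan receptor, fell from 11.5 and 5.15 FPKM to 1.92 and 1.93 FPKM (adjusted p = 0.0451, limma). The DMSO replicates of CD44 lay far apart, but both were above both IWP2 samples. The CD44 call was lost without DMSO replicate 1, without either IWP2 sample, without the filter on low values and without an intensity trend (adjusted p up to 0.253 with a sample left out). Without DMSO replicate 1 the list gave 2 rises and no fall, and without either IWP2 sample it gave no call.

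Immediate early genes also respond to the handling of cells, so heat shock genes were read beside them. HSP90AA1, HSPH1, DNAJB1 and HSPB1 did not pass the test, and the summed level of the list was 907 to 941 FPKM in DMSO and 906 to 931 FPKM in IWP2. HSPA1A and HSPA1B, near-identical copies, were listed at 0 in all samples. How quickly the cells were lysed is not stated.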

How the data were processed

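RNA from 4 H1 samples (2 DMSO, 2 IWP2) was sequenced from Illumina TruSeq libraries that do not mark strand. The authors deposited 1 table of FPKM, 1 column per sample. The column names mark samples without (-) and with (+) IWP2 and carry the replicate number, and the groups were read from these signs. The submitters' processing notes name BWA, Bowtie and RSEM without versions, and hg19, whereas the 58365 row names carry GRCh38 coordinates (56554 spans equal those of GENCODE release 29 once starts are counted from 1). FPKM were used as deposited. For repeated symbols the row with the highest mean was kept. Genes with a mean FPKM over the 4 samples of at least 0.5 were tested with limma 3.58.1 (R 4.3.3, eBayes with intensity trend) on log2(FPKM + 1), with Benjamini-Hochberg adjustment over all 15957 genes, and the fit was tested on simulated data. Fold values are ratios of mean FPKM.

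No count column was used. Low FPKM values step by whole fragments, and the commonest ratio of low values (under 0.2 FPKM) put the deepest library at 1.24 times the depth of the shallowest. Fragment numbers were estimated separately, from the commonest library total implied by low values of genes with a single annotated transcript. They use the full annotated transcript length, are approximate and cover counting error only.

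All 10 members were described. From the other lists, a gene was named with values when it was called and among the 4 largest differences of its list, or when a result turned on it. Some list genes are not reported here. The members and lists were chosen with earlier results of these data known. Alternatives varied the pseudocount, filter, scaling, trend, repeated symbols, replicate block and samples. Promoter sequences are from RefSeq (GRCh38.p14).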

Additional observations from a re-analysis of the deposited data

How the results depend on the processing

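The number of genes called was 2115 (935 higher and 1180 lower in IWP2). It was 384 (118 higher, 266 lower) with no filter on low values, a fit that also covered 28846 genes in place of 15957. Leaving out 1 sample, which leaves 1 group with a lone sample assumed to vary like the other group, gave 107 to 731 calls, with 19 to 300 higher and 88 to 431 lower. JUN stayed positive in all alternatives (1.74 to 1.84) and missed the threshold only without IWP2 replicate 2. JUNB stayed negative in all alternatives (-0.76 to -0.61). The sign of 3 genes that did not pass depended on the sample left out: FOSB ranged from -0.21 to 0.24 (-0.0025 without IWP2 replicate 2), FOSL1 from -0.68 to 0.50 (0.022 without IWP2 replicate 1) and FOSL2 from -0.27 to 0.27 (-0.043 without IWP2 replicate 1), and the cause was not tested.

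The shared replicate numbers are not stated to mark a batch or a culture. The deviations of same-numbered samples correlated at 0.138 across 15957 genes, which are not independent. With the replicate block 1922 genes were called, and the adjusted p in limma was 0.00248 for JUN and 0.0404 for JUNB. The block changed no call of a member, and the genes with AP-1 sites then had 2 falls in place of 1.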

Other observations

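Other leucine zipper factors that can pair with AP-1 proteins were measured as well. Of 12 listed, 10 passed the filter, 2 rose, none fell and 8 did not pass in limma. The median log2 difference was 0.097, beside -0.014 for all genes tested, of which 5.86% rose and 7.39% fell. The median was -0.23 over the 9 genes with a mean FPKM of at least 1, and no gene of the list was called with any 1 sample left out. MAFK, a small MAF protein without an activation domain, rose from 6.42 and 5.54 FPKM in DMSO to 12.3 and 13.8 FPKM in IWP2 (2.18-fold, adjusted p = 0.0106). The MAFK call was lost whichever sample was left out, with adjusted p from 0.0581 to 0.142, and with no filter on low values.

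The 7 listed genes of the ATF4 stress response gave 1 fall and no rise, and without DMSO replicate 1 they gave 1 rise and no fall. TRIB3 fell from 10.3 and 7.19 FPKM in DMSO to 3.38 and 2.91 FPKM in IWP2 (adjusted p = 0.0199, limma), and this call was lost whichever sample was left out and without the filter on low values. The rise without DMSO replicate 1 was that of DDIT4 (adjusted p = 0.0456, limma), which is named here after its values were seen and did not pass in the fit of all 4 samples. The median log2 difference of the list was -0.23, beside -0.014 for all genes tested, of which 5.86% rose and 7.39% fell. The list median was 0.12 without DMSO replicate 1. ATF4 itself was at 354 to 426 FPKM in all samples. CHAC1 was at 15.97 FPKM in DMSO replicate 1 and at 6.36 FPKM in DMSO replicate 2, with both IWP2 samples between these values.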
